A study of Mus musculus with 3 samples.

Results

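The 46 interferon-stimulated genes described here are genes that cells switch on when interferon binds its receptor, chosen by symbol from a list of known members. This list and the further lists below were chosen with earlier results of these data known. The shares of members set beside those of all genes are therefore a description and no independent support. Each had a row among the 23997 genes measured by RNA-seq in macrophages of the mouse colon. All 46 reached the minimum for description, a mean of at least 1 FPKM (mapped fragments divided by transcript length in kilobases and by the depth of the library) over the 3 libraries, and none had to be left out. The nearest to that minimum was Ifi44, with a mean of 1.02 FPKM, which passed through the WT library alone. The cells came from untreated male C57BL/6 mice and were sorted by flow cytometry for CD64, with Siglec-F-negative and Ly6C-low gates, as resident macrophages. All mice carried Lyz2-Cre, a Cre recombinase driven by the lysozyme gene of myeloid cells. Mice with Lyz2-Cre alone are called WT, those with floxed Tle3 in addition are called Tle3cKO, and those with floxed Tle4 are called Tle4cKO. Tle3 and Tle4 encode Groucho-family corepressors, proteins without DNA binding of their own that transcription factors recruit to silence genes. Each library is a pool of mice of 1 genotype (4 of WT, 3 of Tle3cKO, 4 of Tle4cKO), at an age given both as 9 and as 8.9 weeks in the labels. With 1 library per genotype the differences below carry neither replicate error nor a test. Where 3 values of a gene follow each other they are those of WT, of the library labelled Tle3cKO and of Tle4cKO, in that order.

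Interferons come in types that act through separate receptors. Type I interferons, among them interferon beta, signal through JAK kinases to a complex that holds STAT2 and IRF9 and binds the interferon-stimulated response element in the promoters of its targets. Interferon gamma acts mainly through another element, the gamma-activated site, and favours the guanylate-binding proteins and immunity-related GTPases. In gut macrophages a low interferon tone is known to persist without infection and to be fed by sensing of the microbiota.

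Promoter sequences are shown first because the response element is where the interferon-activated complex acts on these genes. The search was for the core of the response element, GAAANNGAAA, on both strands in the 250 bases upstream of each annotated start in RefSeq (build GRCm38.p6, which has the coordinates of mm10). The table gave promoters for 34 members, of which 19 held it, or 55.9%, against 3.46% of the 27025 genes with a promoter and 3.46% of the 8429 of those at a mean of at least 1 FPKM. The most highly expressed member with a match was taken from each group of related function, with 30 bases on either side where the window allowed. For Gbp2 and Irgm1 only 30 bases in all are given, since annotated GENCODE transcripts begin further upstream. Capitals mark the match, read 5′ to 3′ on the strand of the gene, and TTTC repeats are the same element on the other strand. Overlapping matches run together into 1 stretch of capitals.
Stat2, chr10:128270248-128270315, plus strand: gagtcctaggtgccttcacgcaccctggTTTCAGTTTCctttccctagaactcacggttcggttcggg
Isg15, chr4:156200845-156200926, minus strand: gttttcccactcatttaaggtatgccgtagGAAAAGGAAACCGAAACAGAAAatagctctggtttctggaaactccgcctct
Ifi205, chr1:174031850-174031919, minus strand: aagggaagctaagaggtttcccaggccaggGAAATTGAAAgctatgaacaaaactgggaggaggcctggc
Ifit3, chr19:34583343-34583446, plus strand: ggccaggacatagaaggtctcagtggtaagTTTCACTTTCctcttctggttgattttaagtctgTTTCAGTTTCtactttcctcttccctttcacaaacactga
Oas1a, chr5:120907526-120907575, minus strand: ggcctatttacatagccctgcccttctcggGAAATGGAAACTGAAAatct
Gbp2, chr3:142620594-142620623, plus strand: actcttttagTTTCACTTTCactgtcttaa
Irgm1, chr11:48871428-48871457, minus strand: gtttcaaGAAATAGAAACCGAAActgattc
Bst2, chr8:71537557-71537632, minus strand: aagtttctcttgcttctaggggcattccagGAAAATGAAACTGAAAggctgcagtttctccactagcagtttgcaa

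Isg15 held 3 overlapping matches, between 78 and 57 bases upstream of its start, and Oas1a held 2, the nearer of which reached to 5 bases before its start. The letters of the gamma-activated site, TTCNNNGAA, which read the same on both strands, were in the promoters of 7 members (20.6%), against 8.13% of all genes with a promoter. These were Ifit2, Oas1a, Gbp5, Gbp7, Igtp, Bst2 and Isg20, and in Bst2 the site overlapped the response element. A match is a stretch of letters and not a measured binding site. The promoter table held no entry for Oas2, Usp18, Ly6e, Parp14, Iigp1, Gbp4, Rtp4, Dhx58, Mx1, Mx2, Ifi204 and Zbp1.

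**Figure D1:**
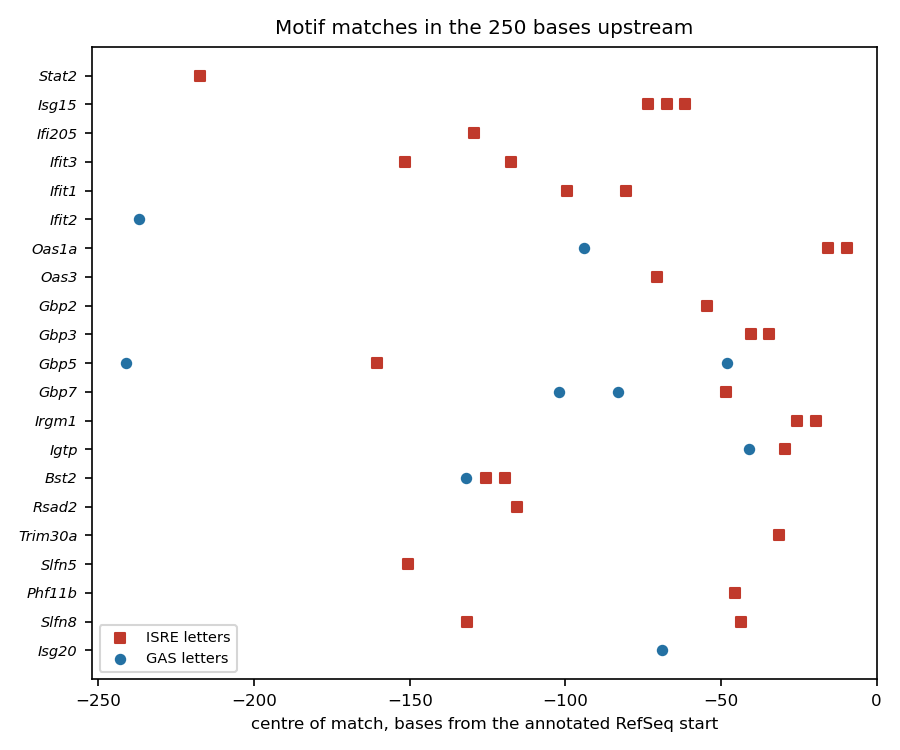
Position of each match to the response element (ISRE, squares) and to the gamma-activated site (GAS, circles) in the 250 bases upstream of the RefSeq start, for the members with at least 1 match. Isg15 holds 3 response element matches side by side, and those of Oas1a and Irgm1 lie nearest to the start.

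Levels of the members spanned a wide range in each library, from 1.64 to 294 FPKM in WT. Ly6e, a cell-surface protein that restricts entry of some viruses, was the most abundant member, at 294, 252 and 229 FPKM. Next came Bst2, the tetherin that holds budding virus to the cell, at 167, 149 and 159.9 FPKM. The ubiquitin-like protein gene Isg15 was at 164, 116 and 135 FPKM, and Oasl1 at 121, 80.1 and 90.5. In WT, 4 members were above 100 FPKM, 30 lay between 10 and 100, and 12 were below 10. The median member was at 16.9, 12.0 and 15.6 FPKM, while the median of all 11114 genes that passed the same minimum was 10.4, 10.5 and 10.4. Summed over the members, FPKM came to 1504 in WT. Tle4cKO reached 1224, or 81.4% of that, and the library labelled Tle3cKO 1166, or 77.6%. Without the 4 most abundant genes the sums were 758, 569 and 609.

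**Figure D2:**
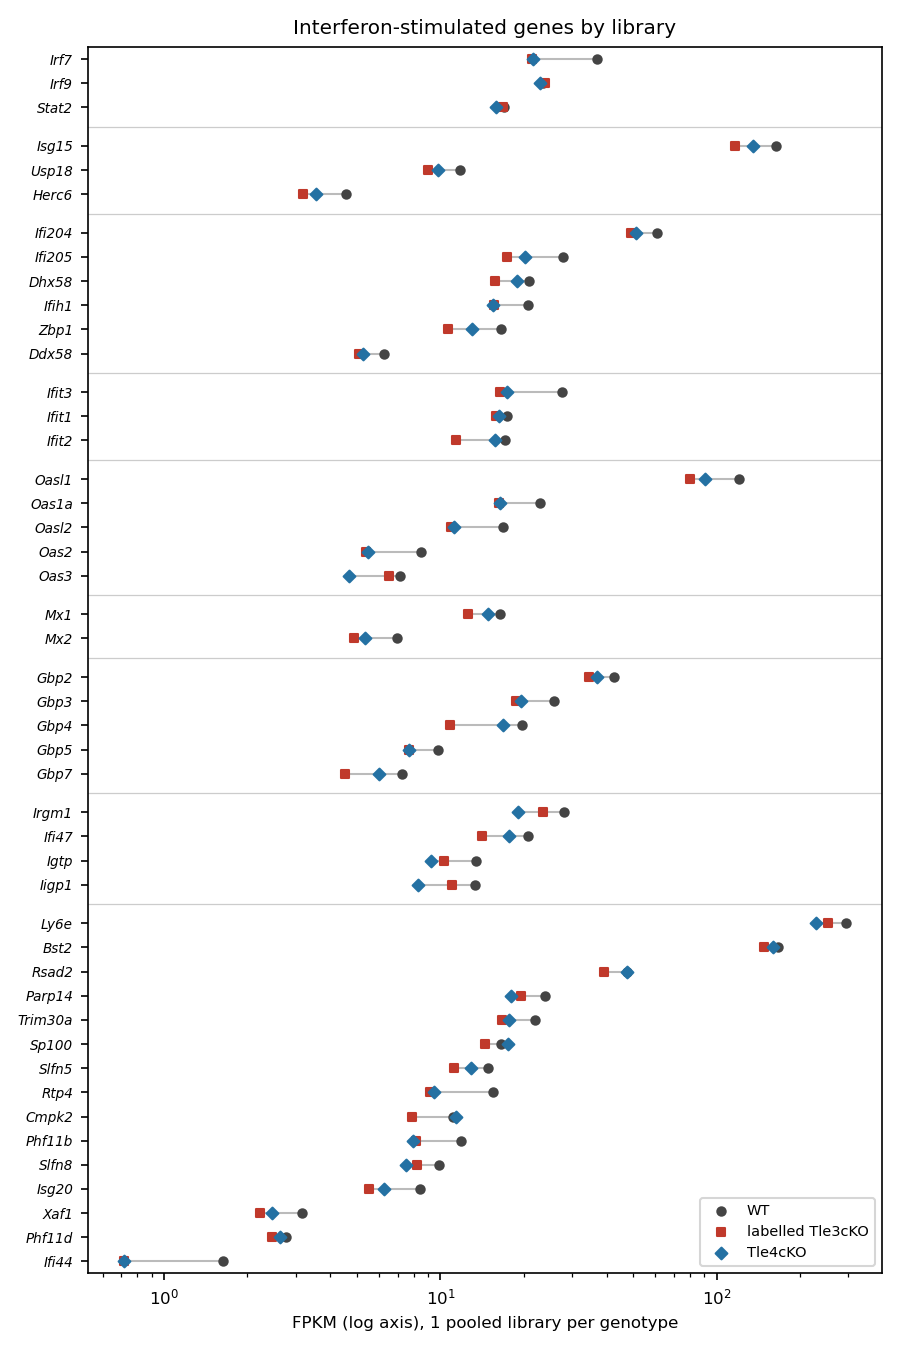
FPKM of each of the 46 members (log axis) in WT (circles), the library labelled Tle3cKO (squares) and Tle4cKO (diamonds), 1 pooled library each, with lines separating groups of related function. WT is the highest of the 3 libraries for 43 members, and Irf9, Sp100 and Cmpk2 are the others.

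The libraries themselves need to be known before their differences are read. The targeted gene Tle3 (ENSMUSG00000032280.16) had 38.6 FPKM in WT, 46.9 in Tle4cKO and 70.7, the highest value, in the library labelled Tle3cKO. This value goes against the label. The data do not show whether a label is at fault, or which. The directions of both comparisons with WT below therefore rest on the labels of WT and Tle3cKO as given. Tle4 (ENSMUSG00000024642.17) was at 8.50, 11.0 and 5.80 FPKM, lowest in Tle4cKO. The values are per gene and do not show single exons. The 10 measured macrophage markers were present in all libraries, from C1qa at 1243, 1093 and 1150.4 FPKM and Csf1r at 459, 406 and 387 to Fcgr1, the gene of CD64, at 33.3, 36.0 and 39.2. Low among them were Cx3cr1 at 8.35, 7.64 and 11.4 and Mertk at 4.46, 7.65 and 6.17, and Mertk was past the threshold given below, higher than WT, in both libraries. Relative depth, read from the steps between the lowest values, was 1.21 times that of WT in Tle4cKO and 0.968 times in the other, and the number of fragments is unknown.

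Nearly all members were lower than WT in the library labelled Tle3cKO, each by a moderate amount. Of 46 members 45 were lower, where 52.4% of all genes were. Log2 ratios were taken on FPKM plus a pseudocount of 1, which understates differences of low genes, and a gene is counted as past the threshold where this ratio is 0.32 or more in size. Past it and lower were 29 members (63.0% of them), where 5.25% of all genes were, and past it and higher was no member, where 6.87% of all genes were. With the pseudocount none was lower by 2-fold, as 0.207% of all genes were. By plain FPKM 1 member, Ifi44, was, as 0.648% of all genes were. Ifi44, counted among the 29, passed the minimum through the WT library alone, so its lower value here is no support. The median log2 ratio of the members was -0.38, with quartiles at -0.55 and -0.26, and that of all genes was -0.01. The median of the plain FPKM ratios was 0.751. With the totals of the libraries made equal, 44 members were lower, 21 of them past the threshold, with a median of -0.29. The median of all genes moved to 0.08, and 31.6% of them were lower, 3.06% past the threshold. In pooled tissue macrophages, fewer cells that express a gene and less RNA per cell cannot be told apart.

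In Tle4cKO the members were lower than WT as well, with a different weight among them. Lower were 44 of 46, where 50.6% of all genes were. This direction rests on the library labelled WT: set against the one labelled Tle3cKO instead, 13 members were lower in Tle4cKO and 33 higher, with a median log2 ratio of 0.07. Past the threshold and lower were 22 members (47.8%), where 5.94% of all genes were, and past it and higher was none, where 5.17% of all genes were. With the pseudocount none was lower by 2-fold, as 0.486% of all genes were. By plain FPKM Ifi44 was again the 1 member that was, beside 1.08% of all genes. It is counted among the 22, and since it passed the minimum through WT alone, its lower value is no support here either. The median log2 ratio was -0.30, with quartiles at -0.45 and -0.19, beside -0.0026 for all genes, and the median FPKM ratio was 0.783. This comparison uses the same WT library as the one before, so the 2 sets of values are not independent of each other.

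**Figure D3:**
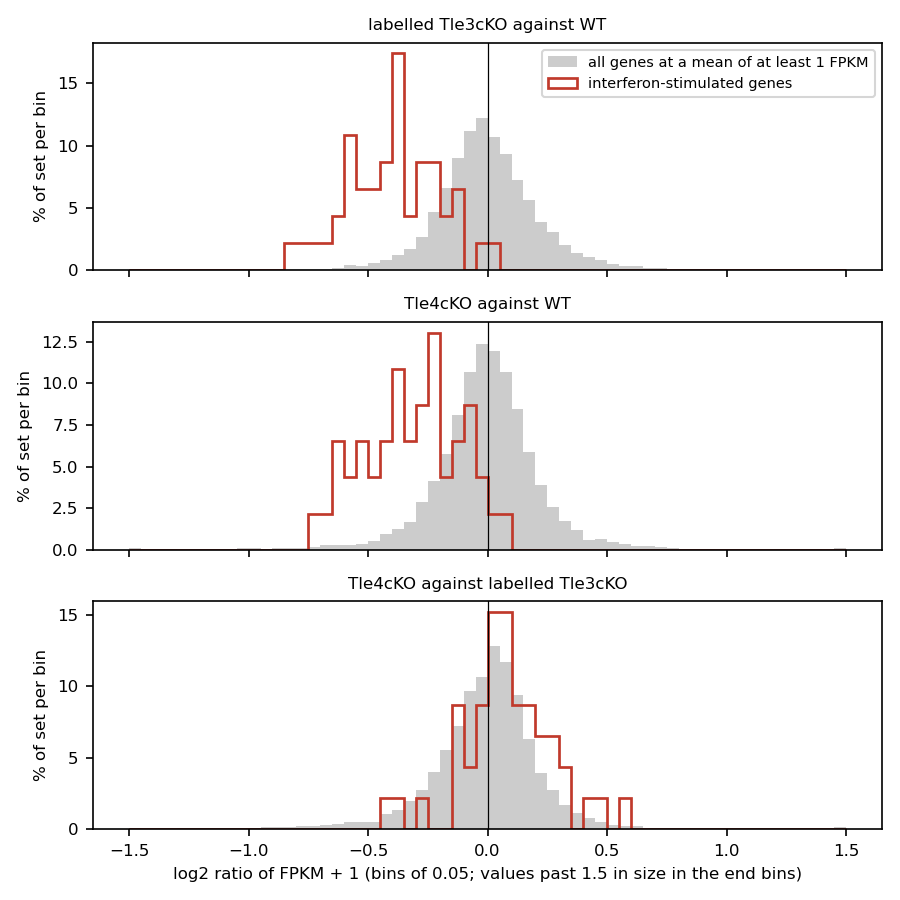
Share of genes per bin of log2 ratio for all 11114 genes (grey) and the 46 members (red outline) in the 3 comparisons of libraries. The members lie left of the grey mass in the 2 comparisons with WT, around medians of -0.38 and -0.30, and near it, around 0.07, between the 2 other libraries.

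Ratios were alike in more and less abundant members. The 23 members above 15.3 FPKM had a median log2 ratio of -0.37 in the library labelled Tle3cKO, against -0.28 in Tle4cKO, and the 23 below had -0.41 and -0.32. The 19 members with a response element match had medians of -0.35 and -0.31, and the 15 with a promoter but no match had -0.44 and -0.26. The members with a match were lower than WT in 19 of 19 cases in both libraries, and those without in 14 and 13 of 15. Of all genes 52.4% and 50.6% were lower. Among those with a match, Stat2 in the library labelled Tle3cKO (-0.0087) and Rsad2 in Tle4cKO (-0.0029) were almost level with WT. Both were higher than WT there with equal totals, so the contrast between members with and without a match is not firm.

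Transcription factors of the pathway differed widely from each other. Irf7, which drives the genes for interferon alpha, was among the members with the lowest ratios in both libraries. WT had 37.0 FPKM of it, Tle4cKO 21.7 and the library labelled Tle3cKO 21.4, which gives log2 ratios of -0.76 in the latter and -0.74 in Tle4cKO (ENSMUSG00000025498.15, chromosome 7, 141262706 to 141266481, mm10). An exon of Phrf1 overlaps Irf7 on the other strand, and the sources used here do not say whether the libraries kept strand. Irf9, the DNA-binding subunit of the interferon-activated complex, was at 23.5, 24.0 and 22.9 FPKM, and its partner Stat2 at 16.9, 16.8 and 15.9. These 2 genes were almost level across the libraries, with ratios between -0.08 and 0.03, and Irf9 was the only member higher in the library labelled Tle3cKO than in WT. With equal totals, or with scaling by the median of ratios, Stat2 was higher there too, and the median of the 3 factors changed from -0.01 to 0.09 and 0.01. The value of Irf9 is uncertain, because Rnf31 overlaps its exons on the same strand.

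The ISG15 system attaches a ubiquitin-like tag to proteins. Isg15 itself (ENSMUSG00000035692.6, chromosome 4, 156199424 to 156200818) had a log2 ratio of -0.50 in the library labelled Tle3cKO, against -0.28 in Tle4cKO. Usp18, the protease that removes ISG15 and also dampens the type I receptor, was at 11.8, 8.99 and 9.83 FPKM. Herc6, the main ISG15 ligase of mice, was at 4.54, 3.18 and 3.54. All 3 genes were ordered alike, WT highest and the library labelled Tle3cKO lowest. Past the threshold and lower were 3 of 3 there, where 5.25% of all genes were, and 0 of 3 in Tle4cKO, where 5.94% were. With a pseudocount of 5, Usp18 and Herc6 in the library labelled Tle3cKO were at -0.27 and -0.22, within the threshold. The contrast of these counts between that library and Tle4cKO is therefore not firm. Between these 2 libraries the log2 ratios of Isg15, Usp18 and Herc6 were 0.22, 0.12 and 0.12, all within the threshold.

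Sensors of nucleic acids were lower in 6 of 6 cases in both comparisons with WT, with medians of -0.39 and -0.28. Zbp1, which binds left-handed nucleic acid and can start necroptosis, was at 16.6, 10.6 and 13.0 FPKM. Ifih1, the gene of the RNA sensor MDA5, was at 20.8, 15.7 and 15.5, and Ddx58, the gene of RIG-I, at 6.24, 5.09 and 5.24. The ratios of Ifih1 to WT were close in the 2 libraries, at -0.39 and -0.40. Dhx58, the gene of their regulator LGP2, was at 21.0, 15.8 and 18.9. Ifi204 (60.9, 49.1 and 51.2 FPKM) and Ifi205 (27.9, 17.5 and 20.2) encode PYHIN proteins, a family of DNA sensors and nuclear regulators. Their rows are uncertain, because 20% and 18.6% of the 50-base stretches of their transcripts also occur in other genes, mainly the related Ifi211 and Mndal.

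IFIT proteins bind viral RNA and block its translation, and the 3 genes of the family differed in the size of their ratios. Ifit3 was at 27.5, 16.4 and 17.5 FPKM, with log2 ratios of -0.71 and -0.63, but 51.2% of its 50-base stretches also occur elsewhere, mainly in its near copy Ifit3b. Ifit1 was nearly level, at 17.5, 15.9 and 16.3 FPKM. Ifit2 was past the threshold only in the library labelled Tle3cKO, at 17.2, 11.4 and 15.7 FPKM.

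OAS enzymes answer double-stranded RNA by making oligoadenylates that activate RNase L. The family was lower in 5 of 5 members in both comparisons, with medians of -0.58 and -0.52. With a pseudocount of 5 they were -0.39 and -0.38, less far from 0 than the IFIT genes in the library labelled Tle3cKO (-0.43) or the immunity-related GTPases in Tle4cKO (-0.41). Oas2 was at 8.52, 5.37 and 5.46 FPKM and Oasl2 at 16.8, 10.9 and 11.2, so the 2 libraries were almost equal and WT stood above them. Oas1a showed the same order at 22.9, 16.3 and 16.4, with 57.6% of its sequence shared, mostly with Oas1g. Oas3 had another order, at 7.13, 6.51 and 4.69 FPKM, lowest in Tle4cKO. Oasl1, which in mice limits translation of IRF7, had ratios of -0.59 and -0.41. Mx1 and Mx2 are genes of the dynamin-like GTPase family. Mx1 is defective in C57BL/6 mice, and GENCODE lists Mx2 as a polymorphic pseudogene. They were at 16.4, 12.6 and 14.9 and at 6.96, 4.86 and 5.35 FPKM.

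Guanylate-binding proteins coat vacuoles of intracellular pathogens, and 5 of 5 were lower than WT in both libraries. Gbp4 had the lowest log2 ratio of any member in the library labelled Tle3cKO at a pseudocount of 1 (Ifi44 was lower at 0.1 and Irf7 at 5), with 10.8 FPKM there against 19.8 in WT and 16.9 in Tle4cKO, log2 ratios of -0.81 and -0.21 (ENSMUSG00000079363.7, chromosome 5, 105115767 to 105139586). Exons of Gbp8 and Gbp9 overlap it on the same strand, so its value is uncertain. Gbp7 followed the same pattern, at 7.26, 4.51 and 6.00 FPKM, while Gbp5 was nearly equal in the 2 libraries, at 9.78, 7.70 and 7.68. Gbp2 was at 42.5, 34.5 and 36.9 FPKM and Gbp3 at 25.8, 18.8 and 19.6.

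Immunity-related GTPases act on the same vacuoles, and 3 of the 4 had Tle4cKO as their lowest library. The family median was -0.31 in the library labelled Tle3cKO, against -0.51 in Tle4cKO. Iigp1 was at 13.4, 11.0 and 8.28 FPKM, and Irgm1, which keeps other members of the family off host membranes, at 27.9, 23.6 and 19.1. Igtp was at 13.5, 10.3 and 9.26 FPKM. These 3 genes were lowest in Tle4cKO, whereas Ifi47, at 20.8, 14.2 and 17.7, was lowest in the library labelled Tle3cKO. Olfr56 overlaps the exons of Ifi47 on the same strand, and Irgm2 those of Igtp, so the values of Ifi47 and Igtp are uncertain.

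Among the 15 other effectors, 13 were lower than WT in Tle4cKO and 15 in the library labelled Tle3cKO, with medians of -0.29 and -0.36. Rtp4, which restricts several viruses, was at 15.5, 9.16 and 9.49 FPKM, log2 ratios of -0.70 and -0.65, with 11.6% of its sequence shared with an overlapping transcript, Gm45338. The exonuclease gene Isg20 was at 8.44, 5.50 and 6.25 FPKM, and Phf11b, with 47.0% of its sequence shared with relatives, at 11.9, 8.15 and 7.98. Ifi44 was at 1.64, 0.715 and 0.714, a plain FPKM ratio of 0.436 in both libraries, although its log2 ratio with the pseudocount was only -0.62. Rsad2, which encodes the radical enzyme viperin, and its neighbour Cmpk2, a mitochondrial nucleotide kinase gene, were lower in the library labelled Tle3cKO and close to WT in Tle4cKO. Rsad2 was at 47.3, 39.1 and 47.2 FPKM and Cmpk2 at 11.1, 7.89 and 11.4. Sp100, a protein of nuclear bodies, was at 16.5, 14.5 and 17.5 and so, like Cmpk2, highest in Tle4cKO. With equal totals or upper-quartile scaling Rsad2 was also higher in Tle4cKO than in WT. Parp14, Trim30a, Slfn5, Slfn8, Xaf1 and Phf11d had log2 ratios between -0.38 and -0.12 in the library labelled Tle3cKO, and between -0.39 and -0.05 in the other. Smaller shares of sequence, 11.8% for Igtp, 12.5% for Herc6, 12.7% for Gbp7 and 14.6% for Slfn8, were common to other genes. Ly6e had ratios of -0.22 and -0.36 and Bst2 of -0.17 and -0.06.

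**Figure D4:**
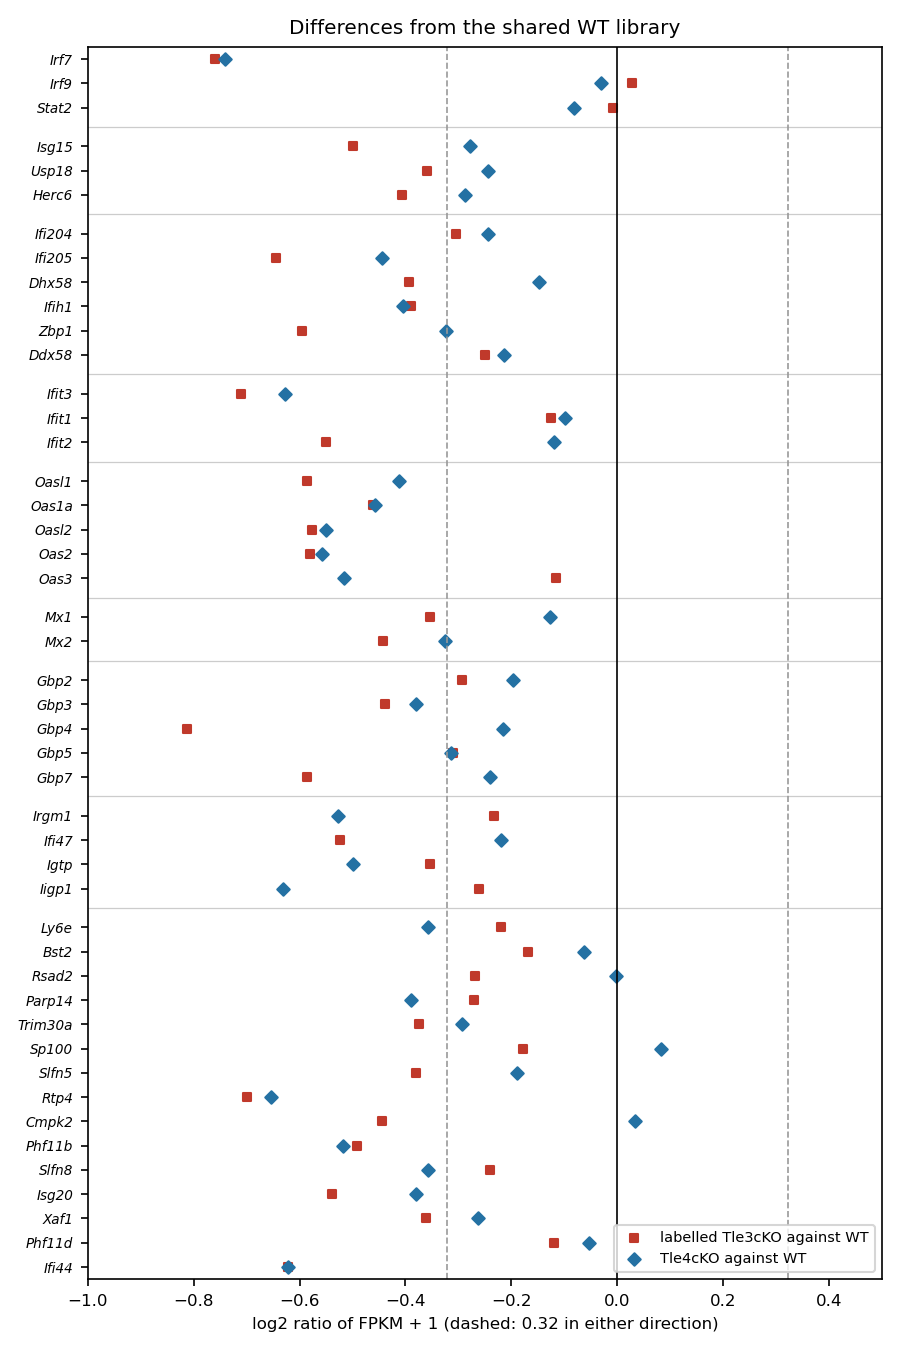
Log2 ratio to WT of each member for the library labelled Tle3cKO (squares) and Tle4cKO (diamonds), with dashed lines at 0.32 in either direction. Irf7, Rtp4 and Ifit3 lie far left in both, Irf9 and Stat2 lie near 0, and the immunity-related GTPases Irgm1, Igtp and Iigp1 lie further left in Tle4cKO.

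Set directly against each other, the 2 libraries with floxed alleles differed less over the members than either did from WT. Lower in Tle4cKO than in the library labelled Tle3cKO were 13 of 46 members, where 47.6% of all genes were, and the median log2 ratio was 0.07 beside 0.01 for all genes. With equal totals 22 members were lower, where 63.6% of all genes were, and the median was 0.016. Past the threshold and higher in Tle4cKO were 4 members, or 8.70%, where 4.59% of all genes were, namely Gbp4 (log2 ratio 0.60), Cmpk2 (0.48), Ifit2 (0.43) and Gbp7 (0.35). Past it and lower were 2 members, or 4.35%, where 6.77% of all genes were, namely Oas3 (-0.40) and Iigp1 (-0.37). The commonest order, WT above Tle4cKO above the library labelled Tle3cKO, was that of 31 members. In 12 the last 2 libraries changed places. In 10 of the 31 and 5 of the 12 these 2 libraries were within 0.08 of each other on the log2 scale, so the place of such members, Oas1a and Gbp5 among them, is not firm.

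Genes that make or carry the interferon signal were read from lists of related genes. Of 19 interferon ligand genes, 13 were listed at 0 in every library, and Ifnb1 alone reached a mean of 1 FPKM. This gene of interferon beta was at 3.24, 2.16 and 2.28 FPKM, log2 ratios of -0.43 and -0.37, so it had the order of most members. Ifng, which lymphocytes make, was at 0.0752, 0.235 and 0.123 FPKM, lowest in WT.

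The receptor and JAK-STAT genes reported here were closer to level than the members, with medians over 13 described genes of -0.08 in the library labelled Tle3cKO, against -0.09 in Tle4cKO, and 0 of the 13 past the threshold, a count near the share over all genes (5.25% lower and 6.87% higher, and in Tle4cKO 5.94% and 5.17%). The type I receptor chains Ifnar1 (54.2, 54.2 and 58.5 FPKM) and Ifnar2 (104, 94.2 and 101) were within the threshold, as were the gamma receptor chains Ifngr1 (131, 139 and 148) and Ifngr2 (60.7, 55.7 and 62.6). The feedback inhibitors Socs1 (16.3, 15.4 and 13.2) and Socs3 (75.9, 71.3 and 60.9) were lowest in Tle4cKO. Of the 6 other described IRF genes, Irf4 was the only 1 past the threshold, higher in the library labelled Tle3cKO, at 13.2, 18.1 and 15.5 FPKM. Irf1 was at 48.9, 41.3 and 41.5 and Irf8 at 136, 119 and 148.

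Of the 18 genes of sensing pathways that lead to interferon, the receptors for single-stranded RNA stood apart by size. Tlr7 was at 61.8, 29.0 and 24.0 FPKM, log2 ratios of -1.07 and -1.33. Tlr8, its neighbour on chromosome X (167242696 to 167264329, with Tlr7 at 167304929 to 167330558), was at 36.8, 11.2 and 13.0, ratios of -1.63 and -1.43. Past the threshold were also Mb21d1, the gene of the DNA sensor cGAS, lower in Tle4cKO (4.15, 3.53 and 3.0 FPKM), and Ticam1 (14.6, 15.2 and 19.7) and Aim2 (9.81, 10.04 and 12.6), higher there. The DNA receptor gene Tlr9 was at 71.3, 68.6 and 64.3 and Tmem173, the gene of STING, at 11.6, 12.3 and 12.2. The median over the 18 genes was -0.06 and -0.12.

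**Figure D5:**
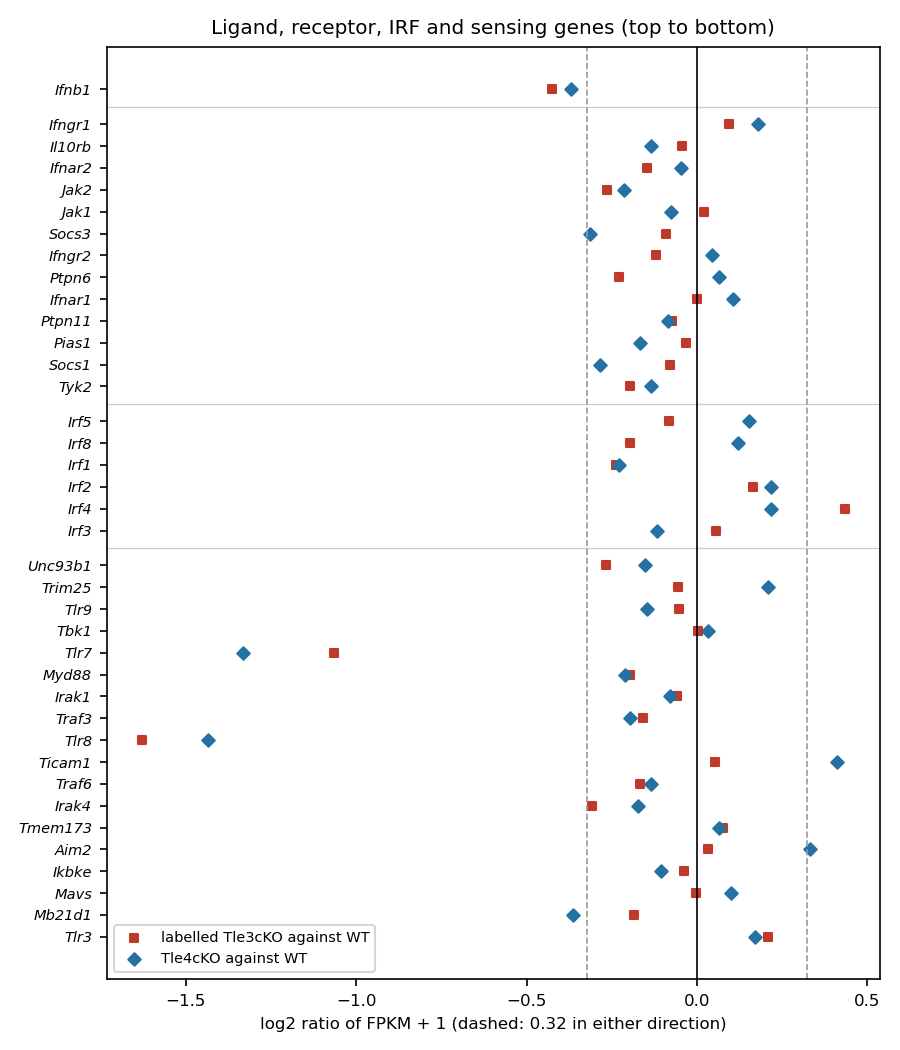
Log2 ratio to WT of ligand, receptor and JAK-STAT, IRF and sensing genes (blocks from top to bottom) at a mean of at least 1 FPKM, in the library labelled Tle3cKO (squares) and Tle4cKO (diamonds). Tlr7 and Tlr8 lie between -1.07 and -1.63 while most genes, receptors included, lie within the dashed lines at 0.32.

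A longer list of other genes known to respond to interferon was lower by less. Of 77 described, 65 were below WT for the library labelled Tle3cKO (median -0.15, 17 past the threshold lower and 2 higher) and 58 for Tle4cKO (median -0.11, 10 lower and 1 higher). Of all genes 52.4% were below WT in the first case, with 5.25% past the threshold lower and 6.87% higher, and 50.6%, 5.94% and 5.17% in the second. Ifi27l2a was at 434, 254 and 289 FPKM and Oas1g at 8.58, 4.90 and 4.66. Cxcl9, a chemokine gene that interferon gamma induces, was at 17.8, 9.48 and 18.3, lower in the library labelled Tle3cKO alone. Tgtp2, another immunity-related GTPase gene, was at 10.2, 6.02 and 8.94 and Slfn1 at 4.21, 2.29 and 2.54. Ifitm1, whose protein sits in membranes and blocks virus fusion, went against the list, at 298, 498 and 360.1 FPKM. It was past the threshold in the library labelled Tle3cKO alone. Trim12a, at 7.46, 9.61 and 9.76, was past the threshold and higher in both libraries.

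Other cells in the sort can carry interferon-stimulated transcripts, and markers of such cells are given here. Of the 8 markers of plasmacytoid dendritic cells, the classical interferon producers, the sum was 57.8, 56.5 and 64.6 FPKM. These markers did not share 1 order. Runx2, the most abundant (25.6, 19.9 and 24.4), Ccr9 (1.36, 1.10 and 1.34) and Cox6a2 (0.864, 0.295 and 0.820) had the order of most members. Siglech was at 7.10, 7.69 and 6.30 and Tcf4 at 11.5, 12.3 and 10.2. Spib was at 3.65, 6.76 and 6.47 and Ly6d at 7.70, 8.13 and 13.0, both lowest in WT. Klk1 was the only marker of these lists that was listed at 0 in any library, WT. The 6 monocyte markers summed to 199, 183 and 202 FPKM. Ccr2 was at 28.3, 12.3 and 28.3 and Ly6c2, which interferon also induces, at 9.38, 5.98 and 6.52, the latter highest in WT as most members were. The 7 measured B and plasma cell markers summed to 140.1, 191 and 338 FPKM, the 8 of conventional dendritic cells to 125, 140.2 and 142, and the 6 of neutrophils to 194, 196 and 191. The 11 of T and NK cells summed to 87.1, 95.5 and 84.6, of which Cd4 made 71.8, 72.8 and 62.5. Cd3e and Cd2 were lowest in WT, with Cd3e at 0.401, 1.55 and 1.70 FPKM and Cd2 at 8.72, 12.6 and 13.6. Epithelial markers, 8 in all, summed to 2.63, 5.58 and 24.7, and the 11 of stroma, endothelium and glia to 256, 299.8 and 276. The part of these cells in the differences of the members was not tested.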

How the data were processed

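RNA-seq values came from 3 libraries, 1 for each genotype, grouped by sample title. The authors deposited FPKM per gene, per the file headers, in 1 table per library with the same 23997 rows. The submitters' processing notes name Cufflinks 2.2.1, TopHat2 2.1.0 and build mm10 and give no roles. FPKM are not counts, so no count model was used, and a group of 1 library allows no test.

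For the 11114 genes whose 3 libraries averaged 1 FPKM or more, ratios were taken after adding a pseudocount of 1, on the log2 scale. The thresholds were 0.32 on that scale and 2-fold, with the share of all genes past each given beside the members. The members and lists were chosen with earlier results of these data known. Lists were taken whole, except that 1 gene of the JAK-STAT and longer interferon lists is not reported here and is left out of their counts and medians. Members are named by group of function: the lowest and highest ratios, the most abundant, and those whose order of libraries differed. Identifiers, exon overlaps and shared stretches of 50 bases (sense strand only) came from GENCODE release M21, which held all 46 members. Promoters came from RefSeq, for 34 members. Steps were tested on simulated data. Alternatives were other pseudocounts, filters and scalings, and leaving out 10 members with over 10% shared sequence. Python 3.11.15, numpy 2.4.6, pandas 2.3.3 and matplotlib 3.10.9 were used.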

Additional observations from a re-analysis of the deposited data

How the results depend on the processing

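No alternative turned the direction of a median over the 46 members in any of the 3 comparisons. None of the 51 single differences from WT past the threshold of 0.32 changed sign, but this could not have come out otherwise. A pseudocount or a filter cannot turn the sign of a gene, and the scalings moved ratios by less than the threshold. For the library labelled Tle3cKO against WT, the median of -0.38 became -0.41 with a pseudocount of 0.1, -0.28 with one of 5, -0.29 with equal totals, -0.36 with scaling by the median of ratios and -0.37 without the members that share sequence, a setting chosen after seeing the data. Ifi44, the least abundant member, had log2 ratios of -1.09 in both libraries at the smaller pseudocount and -0.22 at the larger. The library labelled Tle3cKO had 18 members lower past the threshold in place of 29 with a pseudocount of 5. The share of all genes there became 1.87% in place of 5.25%. In Tle4cKO against WT the median of -0.30 became -0.34, -0.22, -0.27 and -0.27 under pseudocounts of 0.1 and 5, equal totals and the members without shared sequence, and -0.32 with a filter at 5 FPKM and -0.28 with upper-quartile scaling. Between Tle4cKO and the library labelled Tle3cKO the median of 0.07 became 0.087, 0.053, 0.016, 0.054, 0.084 and 0.089 with pseudocounts of 0.1 and 5, equal totals, median of ratios, upper quartile and without shared sequence. There 22 members in place of 13 were lower with equal totals, as were 63.6% of all genes in place of 47.6%. With a pseudocount of 5, 0 members in place of 2 were lower past the threshold, as were 2.29% of all genes in place of 6.77%. Dropping the filter left these medians and counts as they were, since all members passed. The cause of these shifts was not tested. No paired analysis was possible because each genotype has 1 library. The number of fragments behind each FPKM is not known, so counting error could not be set beside any difference, and it weighs most on low genes such as Ifi44.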
